A study of Homo sapiens with 3 samples.

Results

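Cells make cholesterol and fatty acids from acetyl-CoA, and the genes for both routes form a regulated group that was followed here in breast cancer cells carrying 3 forms of the corepressor KAP1. The group was defined by gene symbol alone, with no measured value in its rule, but was chosen with earlier results of these data known. It holds 31 genes of the 19076 lines in the deposited table. Its list gives 33 symbols, and the 2 additional ones are older names of MSMO1 and SC5D. The RNA came from MDA-MB-231, an established human breast cancer line of basal-like and mesenchymal character, depleted of its own KAP1 by a short hairpin RNA and then given KAP1 back. The S473D library came from cells re-expressing KAP1 with aspartate in place of the serine under study, a stand-in for the phosphorylated residue. The S473A library came from cells with alanine at that position, which cannot be phosphorylated, and the wt library from cells with the unchanged protein. Each form gave 1 library, all groups share the knockdown, and the sources used here do not say whether a line was 1 clone or a pool, nor what remained of the cells' own KAP1. TRIM28, the KAP1 gene, stood at 25.6 RPKM in S473D, 32.3 in S473A and 28.7 in wt, and these values cannot be divided between the cells' own transcript and the introduced one. Estimated depths were 24000000 reads for S473D, 29500000 for S473A and 25800000 for wt.

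Sterol synthesis begins with the condensation of acetyl-CoA units, passes through mevalonate and the isoprenoid diphosphates to squalene, and ends with the trimming of lanosterol to cholesterol. Transcription of the enzymes is driven by the SREBP factors, which SCAP escorts from the endoplasmic reticulum when sterol is scarce and INSIG proteins hold back when it is plentiful. SREBP-2, from SREBF2, is known mainly for sterol genes and SREBP-1, from SREBF1, mainly for fatty acid genes, and both act at promoters beside partners such as NF-Y, which binds the CCAAT box.

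Values are RPKM, reads scaled to the length of the gene and the size of the library, so levels of different genes can be compared. A difference is that of log2(RPKM + 1) between 2 libraries, a scale on which changes of low genes come out too small. Differences called deposited or as deposited are on this scale, from the deposited values without removal of trends. Differences were computed for the 11571 genes whose mean reached 1 RPKM, and all 31 genes of the group passed that filter. Since each KAP1 form gave 1 library, no form can be tested against another and the text prints no p-value. A difference speaks of the libraries compared and not of the KAP1 forms in general. Ratios of RPKM carry an exact 95% interval that covers counting error only. Members were counted as lower or higher past a fixed threshold of 0.32 in absolute log2 difference. This is 20% lower or 25% higher in RPKM + 1, and a larger change in RPKM for low genes. GGPS1 in S473D against wt (RPKM ratio 1.27) and EBP in S473A against wt (0.706) were therefore not counted. The share of all 11571 genes past the same threshold is given as the background. The line's defining markers matched its name, except that GATA3, listed as low or absent, stood above the filter at 1.45 to 1.83 RPKM. VIM, for vimentin, stood at 673 to 740 RPKM over the libraries and CD44 at 119 to 156. CAV1 stood at 99.9 to 114 and AXL at 87.9 to 125. CDH1, for E-cadherin, and ESR1, for the oestrogen receptor, were at most 0.24 RPKM in all 3, and EPCAM at most 0.34.

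Promoter letters were compared first, because the group is known for shared promoter elements. RefSeq promoter windows of GRCh38.p14, which run from 250 bases before to 50 after a gene's start, were found for 27 of the 31 genes, without ACAT2, FDFT1, SQLE and FASN. At least 1 CCAAT box, searched as CCAAT on both strands, was present in 20 of the 27 genes (74.1%), against 44.2% of 8598 genes above the RPKM filter that had a window and 34.6% of all 35116 windows. The sterol regulatory element, searched as TCACNCCAC on both strands with N for any base, was found in 1 of the 27 genes (3.7%), SREBF2, against 1.51% of the 8598 genes and 1.13% of all windows. The GC box bound by Sp1, GGGCGG on both strands, was in 26 of the 27 genes against 78.5% of the 8598. The 120 bases from 160 to 41 before the start are printed for 7 genes that span the range of responses described below: HMGCS1, LSS, DHCR7, SREBF2 and SREBF1, which were lower in S473D than in wt, and IDI1 and FDPS, which were higher. Capitals mark the CCAAT box or its complement ATTGG and, in SREBF2, the sterol regulatory element. Where RefSeq lists several windows the first one with a CCAAT box was taken.
HMGCS1: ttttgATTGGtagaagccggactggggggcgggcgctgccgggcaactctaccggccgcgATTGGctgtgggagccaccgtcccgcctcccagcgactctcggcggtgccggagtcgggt
LSS: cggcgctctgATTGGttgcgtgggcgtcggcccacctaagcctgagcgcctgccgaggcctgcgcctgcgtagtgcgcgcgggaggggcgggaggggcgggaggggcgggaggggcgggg
DHCR7: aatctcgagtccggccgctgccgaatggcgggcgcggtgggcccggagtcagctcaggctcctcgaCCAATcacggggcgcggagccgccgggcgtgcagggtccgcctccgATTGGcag
SREBF2: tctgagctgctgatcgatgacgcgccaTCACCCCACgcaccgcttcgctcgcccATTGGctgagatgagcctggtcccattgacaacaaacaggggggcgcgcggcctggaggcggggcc
SREBF1: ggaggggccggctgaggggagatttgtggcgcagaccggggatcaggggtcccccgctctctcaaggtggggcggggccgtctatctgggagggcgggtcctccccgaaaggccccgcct
IDI1: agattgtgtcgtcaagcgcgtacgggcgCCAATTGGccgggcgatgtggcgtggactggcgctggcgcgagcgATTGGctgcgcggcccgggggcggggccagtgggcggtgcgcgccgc
FDPS: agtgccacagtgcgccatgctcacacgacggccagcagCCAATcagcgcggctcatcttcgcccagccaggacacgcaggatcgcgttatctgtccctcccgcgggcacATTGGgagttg

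These stretches lie at chr5:43313453-43313572 (HMGCS1), chr21:46228815-46228934 (LSS), chr11:71448434-71448553 (DHCR7), chr17:17837027-17837146 (SREBF1) and chr10:1048927-1049046 (IDI1) on the minus strand, and at chr22:41832945-41833064 (SREBF2) and chr1:155308706-155308825 (FDPS) on the plus strand of GRCh38.p14, upstream of each gene's start. SREBF2 holds both kinds of element within the printed stretch, while SREBF1 holds neither there. In IDI1 a CCAAT box and its complement overlap. Only the CCAAT box could be compared with the response, since 1 of the 27 members held the sterol regulatory element and 1 lacked the GC box. The 20 members with a CCAAT box had a median S473D minus wt difference of -0.23 and the 7 without one -0.34, against -0.09 and -0.11 for all genes with and without the box. A match of letters is a description of the window and not evidence of binding. A window without these exact letters does not show that the gene lacks the element, since variant letters and sites outside the window were not searched.

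Most of the group stood lower in S473D than in wt, by modest amounts, and the genes of fatty acid synthesis did so as a block. Of 31 members 23 had negative differences and 8 positive ones, with a median of -0.27, against a median of -0.10 and 60.7% negative over all genes. The threshold was passed downward by 14 members (45.2%), where the background was 23% of all genes, and upward by 2 (6.45%), where it was 16.6%. Centring the differences on the median of all genes made the split 9 lower and 3 higher (background 12.6% and 21.8%), and scaling by a trimmed mean of ratios made it 7 and 3 (13.4% and 21.8%). On the log2(RPKM + 1) scale as deposited, no member passed 1.5-fold in either direction, where the background was 3.23% lower and 6.83% higher. On RPKM itself SREBF1 and FADS2 were past it downward, with wt at 1.53 and 1.504 times S473D. IDI1 was barely past it upward, with S473D at 1.5002 times wt. The share of all genes past 1.5-fold on RPKM was not computed. The counting interval of the RPKM ratio lay wholly below 1 for 21 members and wholly above 1 for 5, against 45.6% and 26.9% of 10781 genes with a matched transcript. Summed over the group, the levels came to 1360 RPKM in S473D, 1531 in S473A and 1526 in wt, which is 0.346%, 0.463% and 0.461% of each library's total RPKM. The total itself was higher in S473D, 393381 against 330916 in S473A and 330667 in wt, so the lower share reflects the larger total as well.

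The S473D library differs from the other libraries in its relation to transcript length and base composition, and this touches every S473D result. Over 10781 genes the Spearman correlation, taken across genes that share these libraries, between transcript length and the S473D minus wt difference was -0.44, and with GC content -0.26. For S473A minus wt the same correlations were -0.01 and 0.08. Over the 31 members those for S473D minus wt were -0.52 and -0.32, so the longer and GC-richer members tended to be the lower ones. With smooth trends against both properties removed, the members' median was -0.26 against -0.10 for all genes, and 10 members passed the threshold downward (background 18.1%) and 2 upward (7.49%). Of the 14 members past the lower threshold as deposited, 5 were so after that step as well: HMGCS1, SQLE, HSD17B7, ELOVL6 and FADS2. Values with the trends removed are given beside the deposited S473D minus wt differences of the members and of the further lipid genes below, and beyond that the part of length and composition in the results was not tested.

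**Figure D1:**
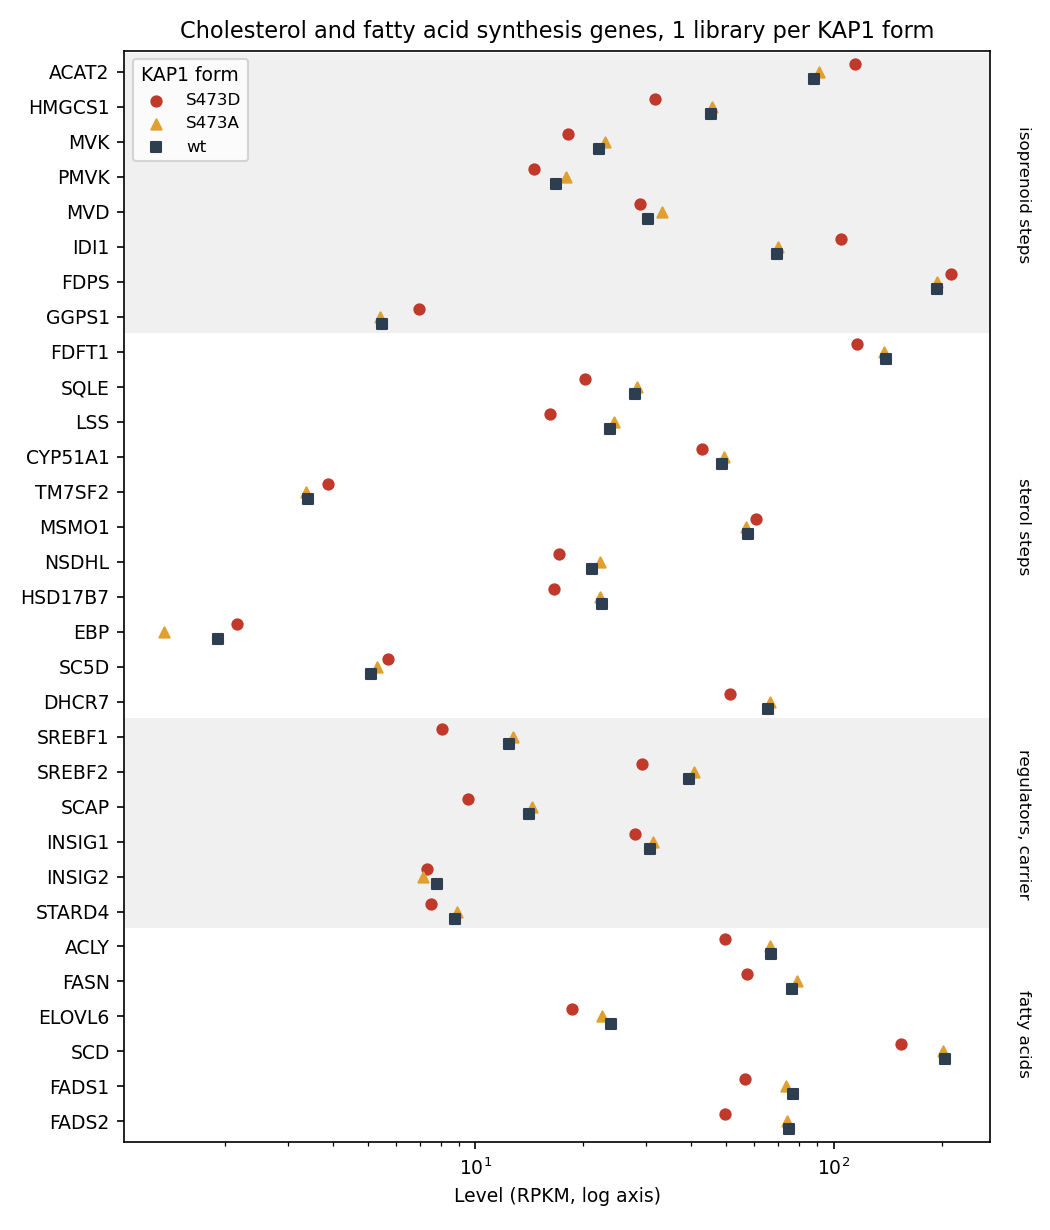
Level of each gene in RPKM on a log axis, with 1 point per library (S473D circles, S473A triangles, wt squares) and genes grouped by role. The S473A and wt points nearly coincide for most genes, while S473D points lie to the left for all 6 fatty acid genes and to the right for 8 genes, among them ACAT2, IDI1, FDPS and GGPS1.

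The early part of the route, from acetyl-CoA to the isoprenoid diphosphates, went both ways in S473D, with 4 of 8 genes lower, 4 higher and a median of 0.03. HMGCS1, which makes HMG-CoA, stood at 31.6 RPKM in S473D, 45.7 in S473A and 45.3 in wt. S473D was the low library, and its ratio to wt was 0.698 (interval 0.665 to 0.733), for a log2 difference of -0.51, or -0.65 with the trends removed. IDI1, which isomerises isopentenyl diphosphate, stood at 104.5 RPKM in S473D, 69.7 in S473A and 69.7 in wt. Here S473D was the high library, at 1.5 times wt (interval 1.45 to 1.55), a difference of 0.58 and, with the trends removed, 0.43. The pair therefore moved apart within the pathway. IDI1 transcript was 3.30 times as abundant as HMGCS1 transcript per kilobase in S473D, against 1.53 times in S473A and 1.54 times in wt. Both genes share annotated exonic bases with a gene on the opposite strand, where reads may be mixed. HMGCS1 shares 703 of 4702 with AC114947.2, which is no line of the table. IDI1 shares 643 of 4345 with IDI2-AS1, whose difference was -0.24.

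ACAT2, the cytosolic thiolase that joins acetyl-CoA units at the start of the route, was the other gene past the upper threshold, at 115 RPKM in S473D, 90.8 in S473A and 88.2 in wt. Its ratio of S473D to wt was 1.3 (interval 1.26 to 1.34) and its difference 0.38, or 0.43 with the trends removed. ACAT2 shares exonic bases with neighbours on the opposite strand in the GENCODE annotation, 397 with TCP1, 1141 with SOD2 and 1458 with SOD2-OT1, a non-coding gene that is no line of the table. The labels state no strand-specific protocol, so reads from these stretches cannot be told apart. TCP1 stood at 141, 136 and 133 RPKM in S473D, S473A and wt (difference 0.08), and SOD2 at 44.2, 56.5 and 57.3 (-0.37).

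FDPS, the farnesyl diphosphate synthase at the branch towards sterols, had the highest mean level of the group, at 212 RPKM in S473D, 194 in S473A and 194 in wt. The S473D to wt ratio was 1.09 (interval 1.06 to 1.13) and the difference 0.13, which changed sign to -0.07 with the trends removed. FDPS is also uncertain because 8 annotated pseudogenes carry its name, with which reads could be shared. GGPS1, which extends farnesyl to geranylgeranyl diphosphate for protein prenylation, stood at 6.98 RPKM in S473D, 5.40 in S473A and 5.50 in wt (difference 0.30, or 0.07 with the trends removed). Its exons overlap those of TBCE on the same strand by 1422 bases, and TBCE had a like difference, 0.27.

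The 3 steps between HMG-CoA and isopentenyl diphosphate were nearer to wt. MVK, mevalonate kinase, stood at 18.1 RPKM in S473D, 23.1 in S473A and 22.1 in wt, a difference from wt of -0.27 (-0.30 with the trends removed). PMVK, the next kinase, stood at 14.6, 17.9 and 16.8 RPKM in S473D, S473A and wt, a difference of -0.19 that became -0.44 with the trends removed, its transcript being among the shortest of the group at 1280 bases. MVD, the decarboxylase that follows, stood at 28.8, 33.1 and 30.4 RPKM, a difference of S473D from wt of -0.07 (-0.10 with the trends removed), and its interval for S473D against wt, 0.878 to 1.02, includes 1.

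From squalene onward, 7 of 11 genes were lower in S473D than in wt, 4 of them past the threshold (36.4%, background 23%), and 0 were past the upper one, with a median of -0.27. FDFT1, squalene synthase and the first step committed to sterols, stood at 116 RPKM in S473D, 138 in S473A and 140 in wt, a ratio to wt of 0.83 (interval 0.805 to 0.856) and a difference of -0.27, or -0.30 with the trends removed. SQLE, squalene epoxidase and a rate-limiting step, stood at 20.2 RPKM in S473D, 28.3 in S473A and 27.9 in wt. Its difference from wt was -0.45, and -0.49 with the trends removed, so that SQLE was among the genes least touched by that step. LSS, which closes squalene epoxide into lanosterol, stood at 16.1, 24.4 and 23.7 RPKM in S473D, S473A and wt. Its difference of -0.53 was -0.24 with the trends removed, its transcript being 4936 bases long with 58.3% GC.

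Beside these stood the genes that trim lanosterol. HSD17B7, a ketosteroid reductase of the demethylation complex, stood at 16.6 RPKM in S473D, 22.3 in S473A and 22.5 in wt, a difference of -0.42. With the trends removed it had the lowest value of the group, -0.87, on a transcript of 1190 bases, and 2 annotated pseudogenes carry its name. DHCR7, which makes cholesterol in the last step, stood at 51.3, 66.4 and 65.5 RPKM (-0.35, or -0.26 with the trends removed). NSDHL, a dehydrogenase of the same complex as HSD17B7, stood at 17.1, 22.3 and 21.2 RPKM (-0.30 and -0.44), and CYP51A1, the lanosterol demethylase, at 42.8, 49.5 and 48.6 RPKM (-0.18 and -0.33). CYP51A1 is uncertain, because 3 annotated pseudogenes carry its name and 2844 of its 3584 exonic bases are shared on the same strand with the overlapping gene AC000120.2, which is no line of the table. In the other direction MSMO1, the methylsterol oxidase that acts between these enzymes, stood at 60.6 RPKM in S473D, 57.0 in S473A and 57.5 in wt. Its difference was 0.08 as deposited and -0.27 with the trends removed, a sign that depends on the treatment of length and GC content.

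The 3 remaining sterol genes were low and their S473D to wt ratios had intervals that include 1. SC5D, a sterol desaturase, stood at 5.72 RPKM in S473D, 5.32 in S473A and 5.09 in wt. TM7SF2, a sterol reductase, stood at 3.89, 3.37 and 3.41 RPKM. EBP, the sterol isomerase, had the lowest level of the group, at 2.16 RPKM in S473D, 1.35 in S473A and 1.91 in wt, from an estimated 92, 71 and 87 reads. The intervals of S473D against wt were 0.959 to 1.31 for SC5D, 0.912 to 1.44 for TM7SF2 and 0.838 to 1.54 for EBP. Their differences of 0.14 for SC5D, 0.15 for TM7SF2 and 0.12 for EBP were -0.16, 0.06 and -0.02 with the trends removed, so the sign turned for SC5D and EBP.

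**Figure D2:**
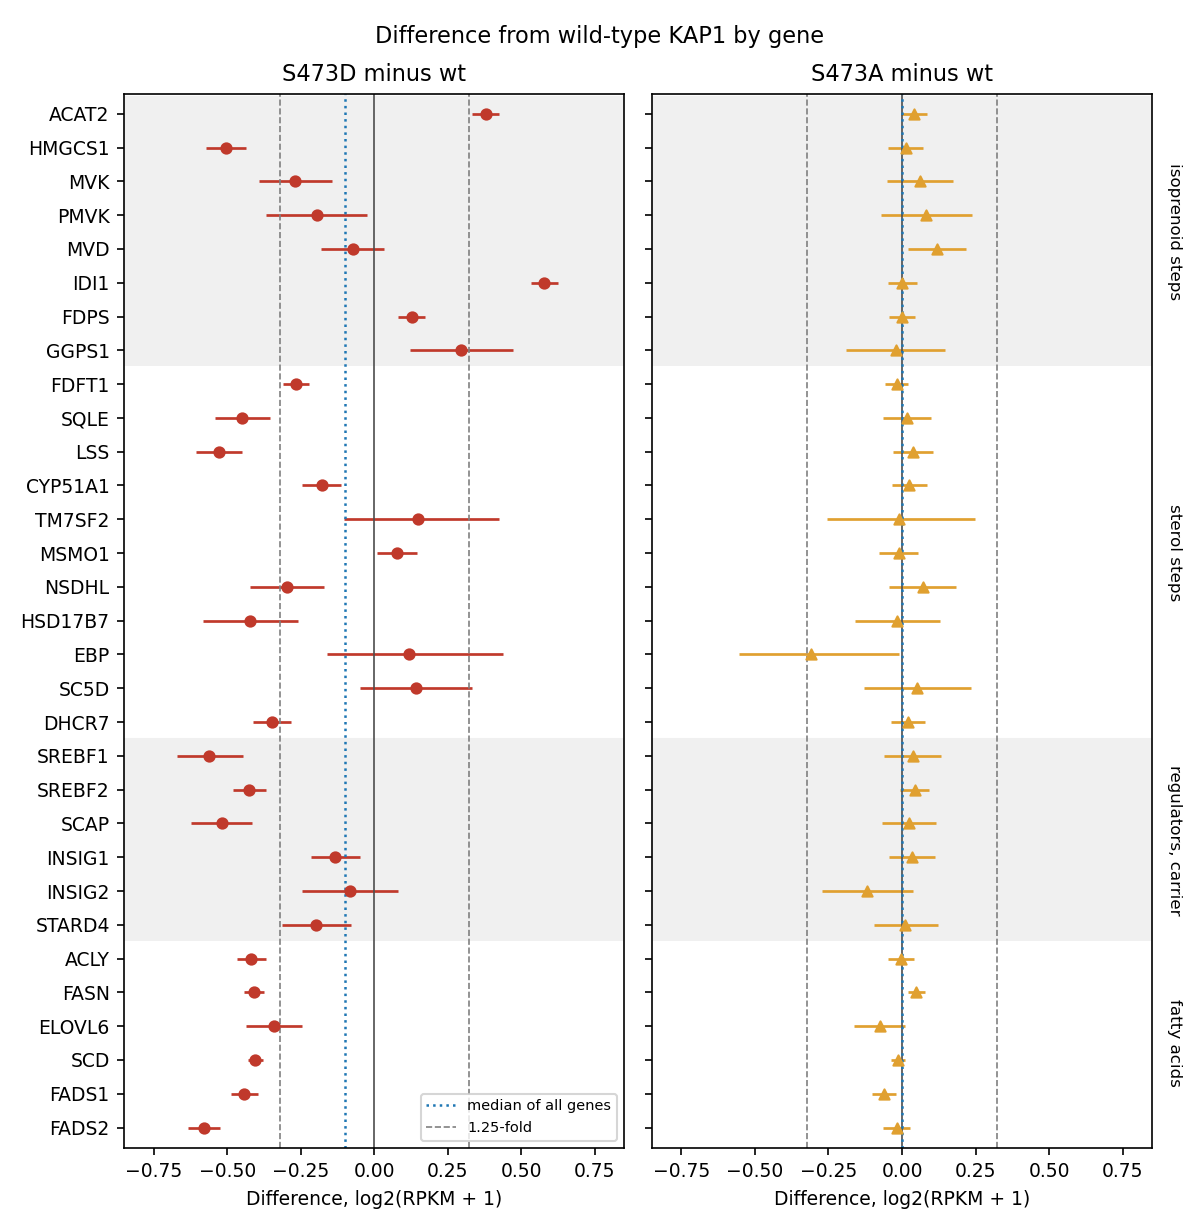
Difference from wt on log2(RPKM + 1) for each gene, S473D on the left and S473A on the right, with bars for the 95% counting interval, a dotted line at the median of all genes and dashed lines at the threshold of 0.32 either way. In S473D 14 genes lie beyond the left dashed line and ACAT2 and IDI1 beyond the right one, while in S473A none lies beyond either line.

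All 6 genes of regulation and sterol transport had negative S473D minus wt differences, with a median of -0.31, where 60.7% of all genes were negative, and 3 (50%) were past the lower threshold (background 23%). SREBF1, the SREBP-1 gene, stood at 8.08 RPKM in S473D, 12.7 in S473A and 12.4 in wt, a ratio to wt of 0.652 (interval 0.597 to 0.712). SREBF2, the SREBP-2 gene whose promoter above holds a sterol regulatory element of its own, stood at 29.2, 40.8 and 39.6 RPKM in S473D, S473A and wt, a ratio of 0.738 (interval 0.709 to 0.769). SCAP, which escorts both precursors to the Golgi, stood at 9.53, 14.3 and 14.1 RPKM, a ratio of 0.676 (interval 0.624 to 0.732). S473D was the low library for all 3, while S473A and wt were close together. These 3 have long, GC-rich transcripts (4253, 5699 and 4394 bases), and their differences of -0.56, -0.43 and -0.52 were -0.27, -0.11 and -0.25 with the trends removed, all inside the threshold. SREBF2 was thereby at about the median of all genes.

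The INSIG genes, which encode the proteins that retain SCAP, were nearer to wt as deposited. INSIG1, itself a classic SREBP target, stood at 27.9 RPKM in S473D, 31.4 in S473A and 30.6 in wt (difference -0.13, or -0.18 with the trends removed). INSIG2 stood at 7.34, 7.14 and 7.83 RPKM, with an interval for S473D against wt of 0.824 to 1.06 that includes 1. Its difference of -0.08 became -0.41 with the trends removed, on an AT-rich transcript with 36.9% GC. STARD4, a sterol carrier between membranes, stood at 7.53 RPKM in S473D, 8.86 in S473A and 8.78 in wt (-0.20, or -0.42 with the trends removed). For these genes the step moved the difference down, and for SREBF1, SREBF2 and SCAP it moved the difference up, so the order within the regulators rests on it. The level of SREBF2 relative to SREBF1 was 3.62 in S473D, 3.21 in S473A and 3.19 in wt.

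The 6 fatty acid genes formed a uniform block, each past the lower threshold in S473D against wt as deposited (background 23%), with differences between -0.58 and -0.34 and a median of -0.41. SCD, the desaturase that makes oleate and the gene with the second highest mean level of the group, stood at 154 RPKM in S473D, 202 in S473A and 204 in wt. Its ratio to wt was 0.754 (interval 0.741 to 0.768). ACLY, which makes cytosolic acetyl-CoA from citrate for both routes, stood at 49.7, 66.6 and 66.7 RPKM in S473D, S473A and wt, a ratio of 0.745 (interval 0.719 to 0.772). FASN, fatty acid synthase, stood at 57.2 RPKM in S473D, 79.0 in S473A and 76.4 in wt, a ratio of 0.75 (interval 0.732 to 0.767).

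The fatty acid genes differed in how they stood up to the removal of trends. FASN has the longest transcript of the group, 8565 bases with 65.3% GC, and its difference changed from -0.41 to 0.02, so its sign turned. SCD and ACLY changed from -0.40 and -0.42 to -0.24 and -0.22, inside the threshold. ELOVL6, which lengthens palmitate, stood at 18.7 RPKM in S473D, 22.6 in S473A and 23.9 in wt, and its difference of -0.34 became -0.46. FADS2, the first desaturase of polyunsaturated fatty acid synthesis, stood at 49.8, 74.0 and 74.9 RPKM in S473D, S473A and wt. On log2(RPKM + 1) without removal of trends it had the lowest difference of the group, -0.58 (ratio 0.665, interval 0.64 to 0.691). By RPKM ratio SREBF1 was lower, at 0.652. FADS2 was past the threshold with the trends removed as well, at -0.37.

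FADS1, the neighbouring desaturase gene on the opposite strand, stood at 56.4 RPKM in S473D, 73.8 in S473A and 76.9 in wt (-0.44, or -0.28 with the trends removed). FADS1 and FADS2 share 490 annotated exonic bases on opposite strands, where reads cannot be told apart. The group of 6 had a median of -0.26 with the trends removed, with 5 negative and 1 positive difference and 2 genes, ELOVL6 and FADS2, past the threshold (background 18.1%). Their summed level was 386 RPKM in S473D, 518 in S473A and 523 in wt.

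**Figure D3:**
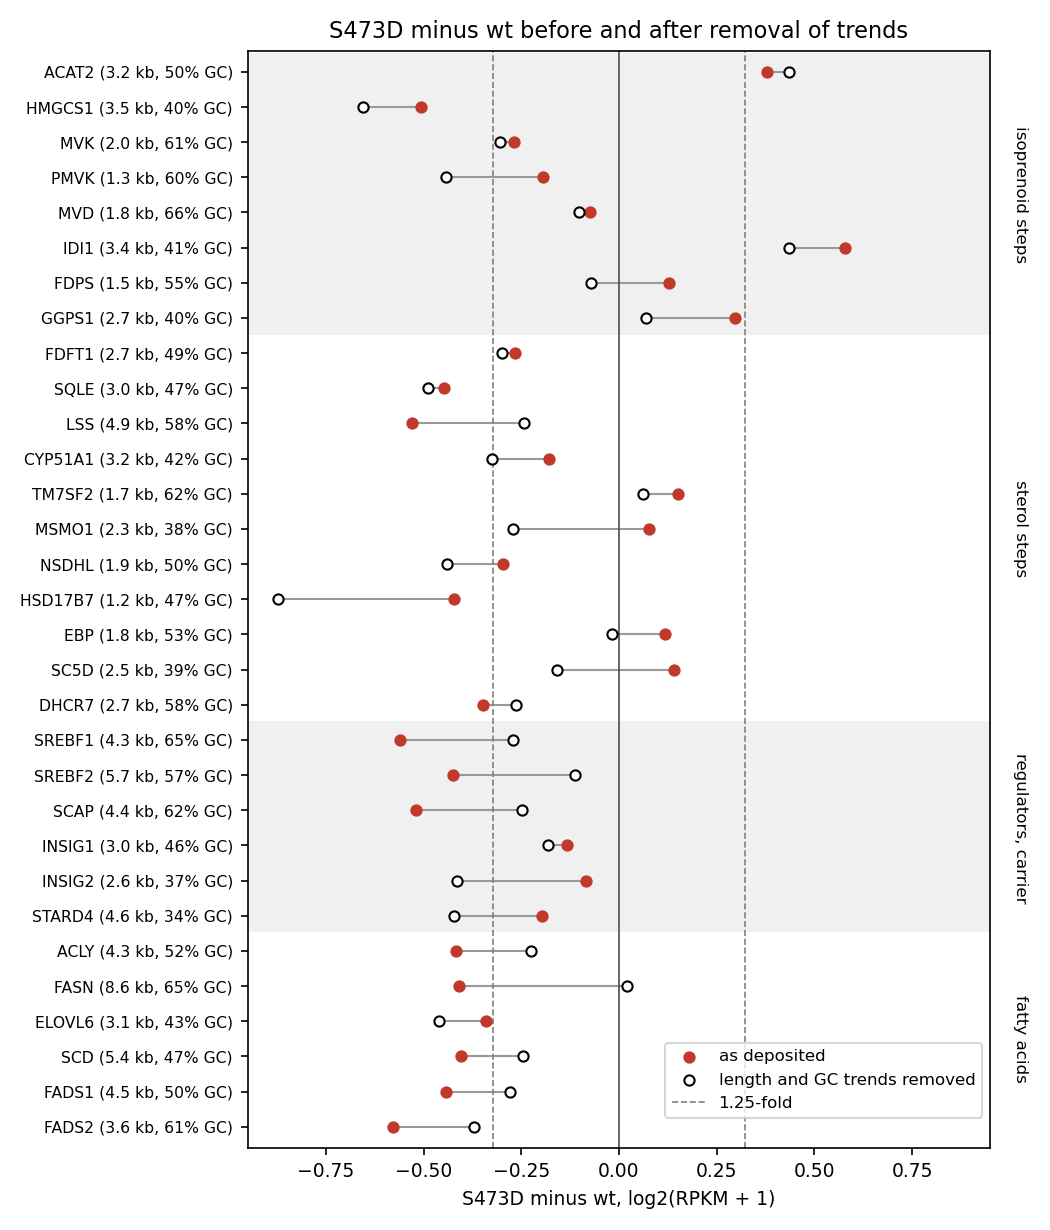
S473D minus wt difference of each gene as deposited (filled points) and with its trends against length and GC content taken out (open points), with transcript length and GC content beside each symbol. FASN moves from -0.41 to 0.02 and HSD17B7 from -0.42 to -0.87, while SQLE and ACAT2 move little.

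**Figure D4:**
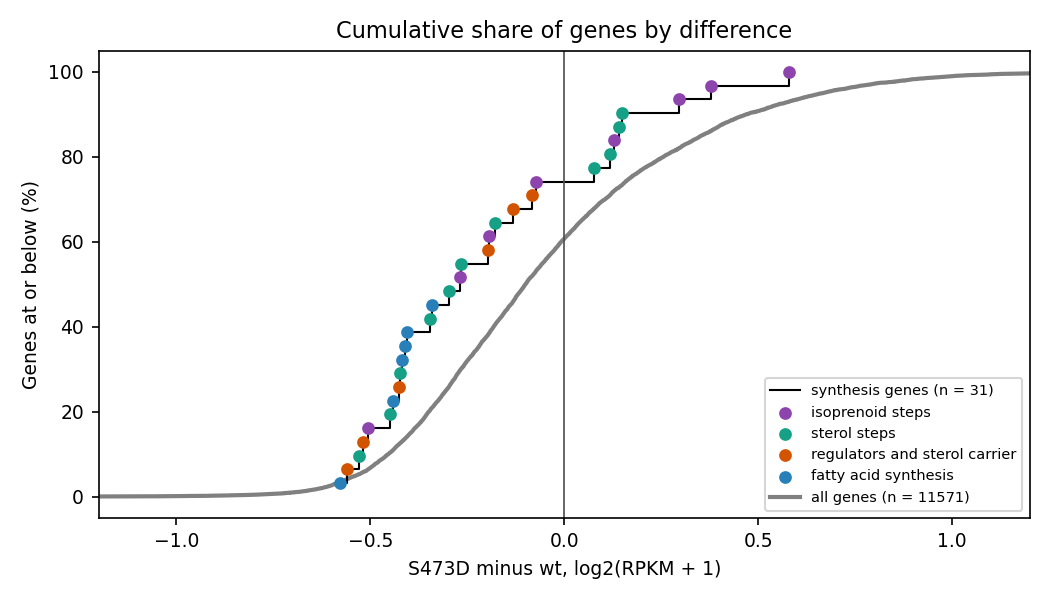
Cumulative percentage of genes at or below a given S473D minus wt difference, for the 31 synthesis genes coloured by role and for all 11571 genes. The synthesis genes' line lies to the left of that of all genes over most of the range, with a median of -0.27 against -0.10, and its right end is made of isoprenoid-step genes.

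The S473A library stood close to wt throughout the group. The median difference of the 31 genes was 0.01, with 18 positive and 13 negative, against 0.00 for all genes, and 0 members passed the threshold in either direction, where the background was 0.657% lower and 0.64% higher. The lowest difference was that of EBP, at -0.31 (ratio of S473A to wt 0.706, interval 0.514 to 0.988), which rests on the fewest reads. The highest was that of MVD, at 0.12 (ratio 1.09, interval 1.02 to 1.17). The interval lay wholly on one side of 1 for 2 further genes, FASN above it (1.01 to 1.06) and FADS1 below it (0.932 to 0.987). Counting intervals wholly below or above 1 were thus found for 2 members each way, against 7.96% and 7.66% of all genes with a matched transcript.

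Set against S473A, the S473D library gave a median of -0.28 for the group and -0.10 for all genes, with 15 members past the lower threshold (48.4%, background 22.8%) and 3 past the upper one (9.68%, background 16.7%). The comparison uses the same S473D library as that with wt and is not independent of it. On the log2(RPKM + 1) scale SREBF1 passed 1.5-fold downward at -0.60 (ratio 0.635, interval 0.583 to 0.691), where the background was 3%, and had -0.29 with the trends removed. On that scale no member passed 1.5-fold upward (background 6.86%). On RPKM itself LSS and SCAP were also past it downward, with S473A at 1.51 and 1.504 times S473D, and EBP was past it upward. EBP was the third gene past the upper threshold, at 0.43 (ratio 1.6, interval 1.15 to 2.20), or 0.28 with the trends removed. Both IDI1 (0.58) and ACAT2 (0.34) were higher in S473D than in S473A, as they were against wt. The counting interval lay wholly below 1 for 22 members and above 1 for 6, against 46.1% and 27.4% of genes with a matched transcript. With the trends removed 10 members were past the threshold downward (background 18.1%) and 2 upward (7.29%). The count of lower genes was 8 with centred differences (background 12.4%), with 4 higher (22.3%), and 8 and 4 with trimmed mean scaling (13.2% and 22.1%).

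Other lipid genes around the group were followed in 6 lists, whose counts for S473D against wt are read against the background of 23% of all genes lower and 16.6% higher, or 18.1% and 7.49% with the trends removed. Glycerolipid synthesis, which uses the fatty acids, had 9 of 23 genes past the lower threshold (39.1%) and 1 past the upper one, with a median of -0.20. With the trends removed the counts were 4 and 1 of 22 and the median was -0.09. AGPAT3 and AGPAT2, acyltransferases that make phosphatidic acid, were lowest at -0.57 each, which became -0.27 for AGPAT3 and -0.68 for AGPAT2. GPAM, a mitochondrial acyltransferase of the first step, was highest at 0.39 (0.41 with the trends removed), followed by CEPT1 at 0.30, whose sign turned to -0.04. Genes of sterol transport, esterification and efflux had 4 of 13 lower (30.8%) and 0 higher, around a median of -0.25. With the trends removed the counts were 3 and 0 and the median -0.23. VLDLR, a lipoprotein receptor gene, stood at -0.53 (-0.41 with the trends removed) and OSBP, an oxysterol-binding protein gene, at -0.44 (-0.25). The lysosomal genes NPC2 and LIPA were highest there, at 0.31 and 0.22, and became -0.10 and 0.06. SREBP processing and degradation genes had 2 of 10 lower (20%), close to the background, and 0 higher, with a median of -0.11. They were ERLIN2 (-0.46, or -0.43 with the trends removed) and ERLIN1 (-0.36, or -0.23), whose products bind sterol-regulated proteins in the endoplasmic reticulum. PAQR3 (0.15, or 0.07) and AUP1 (0.08, or -0.04) were the highest of that list.

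The other 3 lists had counts of lower genes below the background as deposited. Prenylation, dolichol and ubiquinone genes, which use the isoprenoids, had 6 of 16 past the upper threshold (37.5%, background 16.6%) and 1 past the lower one (6.25%, background 23%), with a median of 0.00. With the trends removed the counts were 3 and 2 and the median 0.01. PDSS1, for the ubiquinone side chain, stood at 24.1 RPKM in S473D, 16.2 in S473A and 13.4 in wt (0.80, or 0.44 with the trends removed), and RABGGTB, a Rab geranylgeranyl transferase subunit gene, at 109, 66.0 and 66.9 RPKM (0.70, or 0.53). FNTB, a farnesyltransferase subunit gene, was lowest at -0.89 (-0.81 with the trends removed), but it shares its sequence with the separately listed read-through gene CHURC1-FNTB (10.2 RPKM in S473D, 8.18 in S473A and 7.86 in wt), so its value is uncertain. DHDDS, for dolichol synthesis, followed at -0.28 (-0.17). Fatty acid oxidation had 4 of 16 higher (25%) and 2 lower (12.5%), around a median of 0.04, and with the trends removed 2 and 1, with a median of 0.02. ETFA, an electron carrier gene, stood at 0.58 (0.36 with the trends removed) and DECR1 at 0.55, which became 0.02. HADHA stood at -0.36 (-0.32) and CPT1A, the entry step into mitochondria, at -0.33 (-0.10). Fatty acid supply, activation and elongation genes outside the group had 3 of 21 lower and 3 higher (14.3% each way), with a median of -0.16. Over the 18 of them with a matched transcript, the trends removed, 5 were lower and 2 higher, with a median of -0.17. In that list CYB5A, the cytochrome that feeds electrons to desaturases, was highest at 0.75 (0.67 with the trends removed), followed by PTPLA at 0.55, which had no matched transcript. SCD5 (-0.37, or -0.34) and ACSS2 (-0.36, or -0.25) were lowest. Over all 6 lists, 0 genes passed the threshold between S473A and wt (background 0.657% lower and 0.64% higher).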

How the data were processed

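RNA of 3 libraries was sequenced, 1 for each form of KAP1, placed in groups by title. The submitters' processing notes name Bowtie, Partek and hg19. Their versions, the annotation, the counting rule, its strand and any filter are not stated in the sources used here. Values were deposited as log2 of RPKM, as the table is named, and every column's lowest value is -3.32, the log2 of 0.1, so 0.1 was taken to have been added before the log by the authors and was subtracted again. Because RPKM is scaled to the whole library, one with more of a few abundant transcripts shows lower values elsewhere. Summed RPKM was 393381 in S473D, 330916 in S473A and 330667 in wt.

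Of 19076 lines, 27 with date-like or repeated symbols and 177 short RNAs above the filter were left out, and the 11571 whose mean reached 1 RPKM were compared on log2(RPKM + 1). Depth was estimated from values standing for 1 read within 2%, using the length of 1 GENCODE release 29 transcript per gene (10781 genes, 93.2%), which may not be the authors' length. Exact 95% intervals for ratios used the resulting read numbers and cover counting error only. Trends on log length and GC content were removed by lowess (fraction 0.2, 2 rounds), keeping the overall median. The other alternatives were centred differences, pseudocounts of 0.1 and 0.5, dropping the filter, raising it to 5 RPKM, and trimmed mean scaling (30% of ratios and 5% of levels at each end). Steps were tested on simulated counts with known answers, in Python 3.11.15 with numpy 2.4.6, pandas 2.3.3, scipy 1.17.1 and statsmodels 0.14.6.

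The members, lists and folds were chosen with earlier results of these data known. Every member is named. Of each further list the 2 highest and 2 lowest S473D minus wt differences are named.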

Additional observations from a re-analysis of the deposited data

How the results depend on the processing

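With 1 library per form, no replicate could be left out and no paired analysis was possible. The group's median difference kept its sign in all 3 comparisons under all 7 alternatives, between -0.30 and -0.16 for S473D minus wt, between -0.33 and -0.17 for S473D minus S473A, and near 0.01 to 0.02 for S473A minus wt. The count of genes past the lower threshold in S473D against wt, 14, was 9 with centred differences and 7 with trimmed mean scaling, and the count against S473A, 15, was 8 with either, since both remove the shift of -0.10 in the median of all genes. The count of lower genes in S473A against wt, 0, was 1 with a pseudocount of 0.1 and 1 with 0.5. Of the 14 genes lower in S473D than in wt, 3 passed the threshold under all 7 alternatives (HMGCS1, SQLE and FADS2), and so did both higher genes (ACAT2 and IDI1). Among differences past the threshold, removing the trends on length and GC content reversed FASN for S473D minus wt, to 0.019, and, for S473D minus S473A, NPC2 (0.38, to -0.053) and DECR1 (0.44, to -0.11); the cause was not tested. Inside the threshold the sign of S473D minus wt turned for FDPS (-0.07), MSMO1 (-0.27), SC5D (-0.16), EBP (-0.02), NPC2 (-0.10), CEPT1 (-0.04) and AUP1 (-0.04). Of 93 differences of members over the 3 comparisons, 38 left their counting interval with centring, 38 with trimmed mean scaling and 49 with the trends removed, and none did with another pseudocount. Depth limits the genes under about 5 RPKM, EBP and TM7SF2.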
